A study of Bos taurus with 17 samples.

Results

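The receptors for follicle-stimulating hormone (FSH), luteinising hormone (LH) and prolactin were examined in bovine cumulus cells, the somatic cells that surround the oocyte. Members were taken from the annotation of the array, by gene symbol or by a description that names 1 of these receptors. This gave 4 of 21475 probes and 3 genes: 1 probe for FSHR, 2 probes for LHCGR and 1 probe for PRLR. Each probe was printed as 2 spots. The matching of probes to these genes used no measured value, but the receptors were chosen with earlier results of these data known.

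Each of the 17 samples was hybridised to its own 1-colour Agilent array. NC1 cells came from 6 prepubertal calves aged 3 to 6 months and surrounded prophase I oocytes labelled as developmentally incompetent. C1 cells came from 6 adult cows of different ages and surrounded prophase I oocytes labelled as competent. NC1 and C1 complexes were aspirated after slaughter, without hormone treatment named in the methods, from follicles of 3 to 6 mm in the calves and by the same procedure in the cows, and were kept where the cumulus was compact and several layers thick. C2 cells came from 5 cycling, non-lactating Holstein cows aged 3 to 5 years and surrounded metaphase II oocytes. These cows carried progestagen implants and were superovulated with a porcine FSH and LH preparation and prostaglandin F2alpha. Their complexes were collected 60 h after the prostaglandin by ovum pick-up from follicles over 8 mm in diameter, and were kept where the cumulus was expanded. Stage, hormone treatment, way of collection and, by the methods, follicle size therefore changed together between C1 and C2, and cannot be told apart. Between NC1 and C2 these changed together with age, calf or adult. Between NC1 and C1 stage and age changed together. The labels name the tissue as ovarian follicles, while the protocols describe cumulus cells separated from the oocytes.

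FSHR and LHCGR are glycoprotein hormone receptors that couple through the stimulatory G protein to adenylyl cyclase and cyclic AMP. FSH acts on granulosa and cumulus cells of the growing follicle, where it drives oestradiol synthesis, while the LH surge starts ovulation, cumulus expansion and luteinisation. PRLR is a cytokine receptor without kinase activity of its own that signals through JAK2 and STAT5, and it is best known in the mammary gland and the corpus luteum.

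Signals are given as log2 of the background-corrected intensity minus the median of the array over all non-control probes, and are called scaled levels. A probe was detected on an array where at least 50% of its spots were well above background by the scanner software. Between 66.2% and 82.8% of the probes were detected on an array. Of the 10 granulosa and cumulus markers all were detected at each stage. The log2 of their summed scaled signals ran from 11.38 to 12.36 in NC1, from 11.33 to 12.03 in C1 and from 10.17 to 11.78 in C2. Such a sum follows mostly its brightest genes. Of the 8 markers present at each stage, 6 were lower and 0 higher in C2 than in C1 at an adjusted p under 0.01 by limma. The median difference, C2 minus C1, was -1.91. Against NC1, 5 were lower and 0 higher, with a median of -1.95. Outside the 8, C2 minus C1 was -1.99 for AMHR2 and 5.02 for KITLG. The part of these falls in the FSHR difference below was not tested. The 9 theca and stroma markers on the array were also detected at each stage, with sums of 7.43 to 8.26, 7.63 to 8.26 and 8.23 to 9.24. Oocyte markers were detected for 8, 9 and 4 of 9 genes, with sums of 5.76 to 6.99 in NC1, 2.33 to 5.60 in C1 and 1.74 to 2.96 in C2, where DAZL, as in NC1, and ZP2, BMP15, DDX4 and BTG4 were detected on no array. Leukocyte markers summed to 2.18 to 3.35, 1.65 to 2.36 and 2.03 to 4.37, with CD3E and ITGAM detected on no array of NC1 or C1. Red blood cell markers summed to 4.81 to 7.02, 6.19 to 8.01 and 1.35 to 5.69, and endothelium markers to 0.26 to 1.35, 0.15 to 0.46 and 1.37 to 3.49, with CDH5 and EMCN detected on no array and ALAS2 on none of NC1 or C2. The part of these other cells in the differences below was not tested.

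Some C2 arrays lay closer to each other than the rest. The root mean square difference between the scaled profiles of 2 arrays was 0.44 for C2 replicates 1 and 5 and 0.53 for C2 replicates 3 and 4, and between 1.07 and 1.28 for the other pairs of C2 arrays. Pairs within NC1 ranged from 0.43 to 0.74 and pairs within C1 from 0.46 to 0.81. The close pairs were hybridised on different slides, but replicates 1 and 5 were scanned on 1 day and replicates 3 and 4 on the other. The receptor differences that rest on C2 are therefore given also with each close pair averaged and with replicates 1 and 5 left out, and the other genes and lists where this changed a call or moved a count of calls by over 1.5 times.

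The sequence that carries the FSHR measurement is shown by its first 30 bases, 5′ to 3′, together with the probe for FSHB, the hormone's own beta subunit, whose signal is described below. Both come from the deposited table of normalized values. Capitals mark triplets that spell a stop codon (TAA, TAG or TGA) in any forward frame. Over its full 60 bases the FSHR probe held such a triplet in all 3 frames and the FSHB probe in 2 of 3.
FSHR probe A_73_115750: acttccacttacttcatcTAAttTAAtctc
FSHB probe A_73_120974: gagactatttcaTGAgtTGAtttcgagatg

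FSHR was strongly expressed in NC1 and C1 and fell in C2. The NC1 arrays measured scaled levels of 5.05, 4.50, 5.72, 4.98, 5.52 and 4.98, with a mean of 5.12 ± 0.44 (SD, n = 6). The C1 arrays measured 5.61, 5.48, 5.42, 5.91, 5.40 and 5.79, with a mean of 5.60 ± 0.21 (SD, n = 6). The C2 arrays measured 1.76, 2.83, 2.01, 2.04 and 1.62, with a mean of 2.05 ± 0.47 (SD, n = 5). The highest C2 array, replicate 2, lay below the lowest array of either earlier stage, so that the C2 range overlapped neither of them. All 34 spots were well above background and none was saturated or marked as an outlier. Each C2 array gave at least 35.7 times its own lowest detected signal, and duplicate spots differed by at most 0.13 on the log2 scale.

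**Figure D1:**
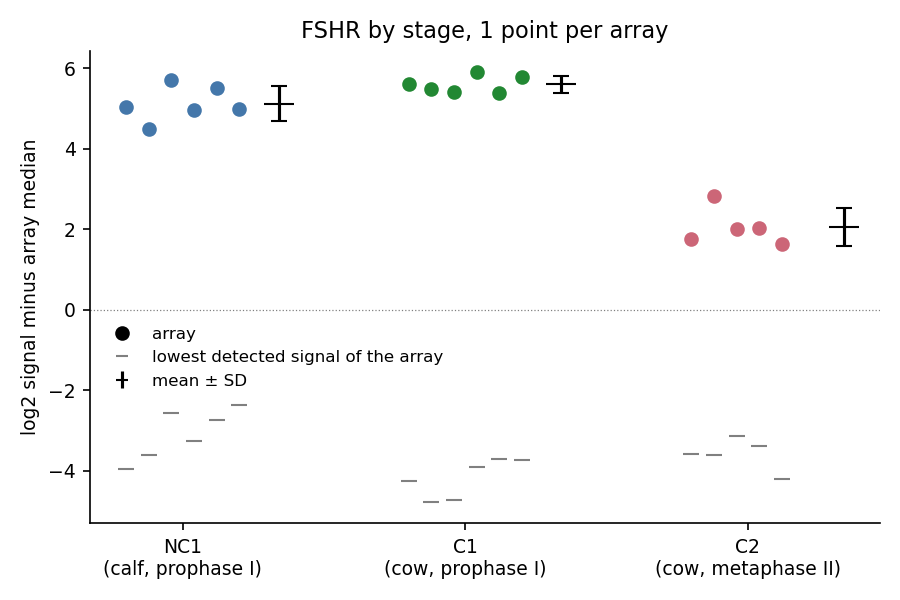
Scaled FSHR level (log2 signal minus array median, y axis) on each array by stage (x axis), with mean ± SD beside the points and the lowest detected signal of each array as a grey dash. The 5 C2 arrays sit between 1.62 and 2.83, below all NC1 and C1 arrays, and every array sits above its dash.

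FSHR was 11.7-fold lower in C2 than in C1, with a 95% confidence interval of 8.33 to 16.5. On the log2 scale the difference of means, C2 minus C1, was -3.55 (SE 0.23), with an adjusted p of 2.31e-09 by limma with Benjamini-Hochberg adjustment over 13865 probes present at each stage. Against NC1 the level was 8.40-fold lower, with a difference of -3.07 (SE 0.23) and an adjusted p of 1.42e-08. An exact 2-sided permutation test over the arrays gave p = 0.00433 for each comparison, the smallest value that 5 arrays against 6 allow. In each comparison 28.1% of the tested probes passed the threshold of 0.01, and 12.8% were called lower in C2 than in C1 and 12.6% lower than in NC1. The FSHR fall was the 111th largest against C1 and the 169th largest against NC1. Ranges of C2 that lay wholly below those of C1 were found for 11% of the probes, and below those of NC1 for 10.3%. In these bulk samples fewer cells that express FSHR and less FSHR RNA per cell cannot be told apart.

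The fall was measured on each slide and on each scan day. The 6 slides each held 1 NC1 and 1 C1 array, and 5 of them also held 1 C2 array. Within slides, C2 minus C1 was -4.03, -2.57, -3.89, -3.38 and -3.99 on slides 1, 2, 3, 4 and 6. The smallest of these belonged to C2 replicate 2, the array with the highest FSHR level of its stage. Within scan days the difference was -3.53 on the first day and -3.58 on the second. With each close pair of C2 arrays averaged it was -3.42 (adjusted p = 1.37e-07 by limma), and with C2 replicates 1 and 5 left out it was -3.31 (adjusted p = 2.52e-08 by limma). Against NC1 the values were -2.94 (adjusted p = 6.79e-07 by limma) and -2.83 (adjusted p = 1.57e-07 by limma).

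**Figure D2:**
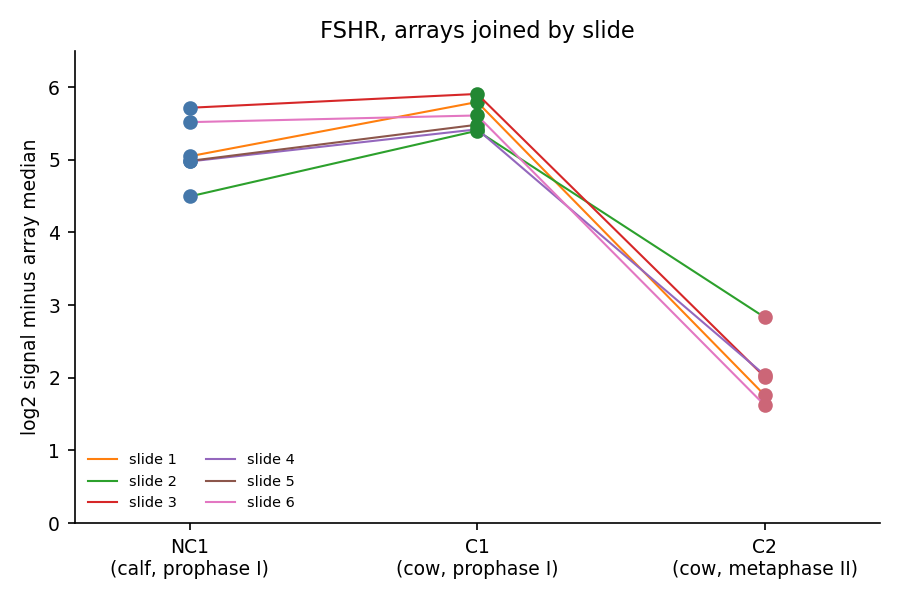
Scaled FSHR level (log2 signal minus array median, y axis) by stage (x axis), with arrays of the same slide joined by a line; slide 5 held no C2 array. Each of the 5 lines that reach C2 drops by at least 2.57 from C1.

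FSHR did not pass the threshold between C1 and NC1. The difference was 0.48 on the log2 scale (SE 0.22), or 1.39-fold higher in C1, with a 95% confidence interval of 1.01 to 1.93 and an adjusted p of 0.489 by limma. The exact permutation test gave p = 0.0346. The ranges overlapped by 0.32, and 0.0577% of the tested probes passed the threshold in this comparison. Within slides the C1 array was the higher on all 6, by 0.09 to 0.90, although the animals differ. The order of the stage means was therefore C1, NC1 and C2, of which the first 2 overlapped in range and did not pass the threshold.

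LHCGR was close to background at all stages and was detected on few arrays. Neither probe reached the filter of detection on 80% of the arrays of each stage, and its tests were therefore taken from a fit over all 21475 probes, in which 21.2% passed the threshold for C2 against C1, 20.5% for C2 against NC1 and 0.116% for C1 against NC1. Probe A_73_101630 was detected on 0 of 6 NC1 arrays, 1 of 6 C1 arrays and 2 of 5 C2 arrays. Probe A_73_103337 was detected on 0 of 6, 0 of 6 and 2 of 5 arrays. Both probes were detected in C2 on the same arrays, replicates 1 and 5. Of all probes, 19.4% were detected on no NC1 array and 13.1% on no C1 array. A share of 1.69% of all probes was detected on these 2 arrays and on no other array of C2.

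On A_73_101630 the C2 arrays measured scaled levels of -1.23, -3.64, -4.68, -5.51 and -1.84. Replicates 1 and 5 lay above the other arrays of all stages, at 43.8 and 43.3 intensity units, or 5.16 and 5.20 times the lowest detected signal of their arrays. The C1 arrays ran from -6.79 through a median of -5.58 to -2.94, and only the highest, replicate 5, was detected, at 16.6 intensity units and 1.71 times the lowest detected signal. The NC1 arrays ran from -6.04 through a median of -5.14 to -4.34, and the scanner software had replaced all 12 of their spots with a surrogate, a value set from the background noise where the spot does not exceed it. Surrogates also stood for 5 of 12 spots in C1 and 3 of 10 in C2.

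On the second LHCGR probe only C2 arrays were detected. On A_73_103337 the C2 arrays measured -3.12, -4.14, -5.45, -5.29 and -3.82, and replicates 1 and 5 were again the highest of all 17 arrays, at 11.8 and 11.05 intensity units. The C1 arrays ran from -6.90 through -6.28 to -4.55 and the NC1 arrays from -5.92 through -5.31 to -4.62, all below the lowest detected signal of their arrays. By a weaker flag, a signal significantly above background, both spots also passed on C1 replicates 4 and 5 and C2 replicate 2. On A_73_101630 both spots also passed this flag on C1 replicate 1 and C2 replicate 2. The 2 probes are different probes of the same RefSeq transcript, and their levels were not set against each other.

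The C2 difference of LHCGR did not pass the threshold on either probe. C2 minus C1 was 2.00 (SE 0.72, adjusted p = 0.0391 by limma) on A_73_101630 and 1.63 (SE 0.46, adjusted p = 0.0103 by limma) on A_73_103337. C2 minus NC1 was 1.81 (adjusted p = 0.0651 by limma) and 0.92 (adjusted p = 0.144 by limma). No difference between C1 and NC1 was read, since nearly all of their arrays were not detected. Leaving out C1 replicate 5 took both probes past the threshold against C1 (adjusted p = 0.00792 and 0.00247 by limma), as did leaving out C2 replicate 3 or 4 for A_73_103337 (0.00471 and 0.00631). With C2 replicates 1 and 5 left out, C2 minus C1 was 0.77 (adjusted p = 0.363 by limma) and 1.03 (adjusted p = 0.102 by limma), and C2 minus NC1 was 0.58 and 0.32 (adjusted p = 0.560 and 0.648 by limma). With the close pairs averaged, C2 minus C1 was 1.96 and 1.67 (adjusted p = 0.0669 and 0.0211 by limma), and C2 minus NC1 was 1.77 and 0.95 (adjusted p = 0.102 and 0.192 by limma). No lower bound of a fold could be given against NC1 on either probe or against C1 on A_73_103337, because the C2 mean lay below the mean of the lowest detected signals of those arrays. Within scan days, C2 minus C1 on A_73_101630 was 2.39 on the first day, which held replicates 1, 2 and 5, and 1.05 on the second, and on A_73_103337 it was 2.01 and 0.91. C2 minus NC1 turned negative on the second day, from 3.31 to -0.27 on A_73_101630 and from 1.88 to -0.38 on A_73_103337.

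**Figure D3:**
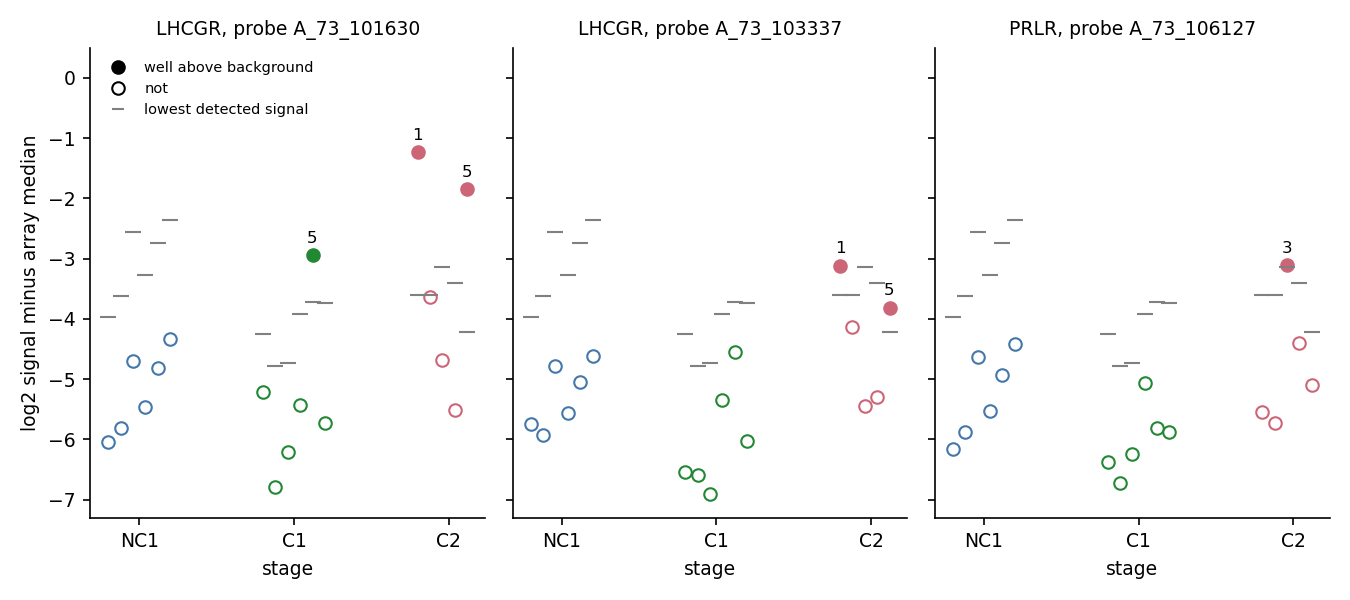
Scaled levels (log2 signal minus array median, y axis) of the LHCGR and PRLR probes on each array by stage (x axis), filled where detected (numbers give the replicate) and open where not, with the lowest detected signal of each array as a grey dash. Filled points appear for LHCGR on C2 replicates 1 and 5 and, on the first probe, C1 replicate 5, and for PRLR on C2 replicate 3.

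PRLR was close to background on all arrays. Probe A_73_106127, designed on transcript variant 1, had 1 well-above-background spot among 34, on C2 replicate 3, which measured -3.11, or 1.03 times the lowest detected signal of the array. The other C2 arrays measured -5.54, -5.73, -4.40 and -5.10. The C1 arrays ran from -6.73 through a median of -6.06 to -5.06, and the NC1 arrays from -6.16 through -5.22 to -4.42, with surrogates for 8 and 11 of their 12 spots. In C2 surrogates stood for 3 of 10 spots. The array with PRLR well above background, C2 replicate 3, was not one of those with detected LHCGR. By a weaker flag, a signal significantly above background, both PRLR spots also passed on C2 replicates 4 and 5 and C1 replicate 4. No PRLR difference passed the threshold: C2 minus C1 was 1.24 (SE 0.44, adjusted p = 0.0374 by limma) and C2 minus NC1 was 0.48 (SE 0.44, adjusted p = 0.436 by limma). With the close pairs averaged these were 1.08 and 0.32 (adjusted p = 0.104 and 0.660 by limma), and with C2 replicates 1 and 5 left out 1.60 and 0.84 (adjusted p = 0.0215 and 0.242 by limma). Neither NC1 nor C1 had a spot well above background, and no difference between them was read. At this sensitivity PRLR was not detected in NC1 and C1 by the well-above-background flag, and other PRLR transcripts were not analysed here.

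The C2 arrays with detected LHCGR also differed from the other C2 arrays in steroidogenic genes, which were picked from the lists after their values were seen and were not tested. STAR, which brings cholesterol into the mitochondrion, measured 7.66 and 8.19 on replicates 1 and 5 and -0.94, 0.87 and -0.04 on replicates 2, 3 and 4. CYP11A1, which cleaves the cholesterol side chain, measured 8.60 and 8.86 against 3.45, 6.33 and 6.67, and HSD3B1, which forms progesterone, 10.80 and 10.73 against 6.43, 7.74 and 8.07. These 2 arrays were the highest of the stage for all 3 genes. Over all probes present at each stage they also lay apart, at root mean square differences of 1.25 to 1.28 from the other C2 arrays. The share of all probes that separate these 2 arrays from the rest of C2, in either direction, was not counted.

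Other genes were lower on replicates 1 and 5 than on the rest of the C2 arrays, and were picked and left untested in the same way. CYP19A1, the aromatase, measured -3.38 and -3.74 on replicates 1 and 5 and -1.15, 2.34 and 2.43 on replicates 2, 3 and 4. CCND2, a cyclin of granulosa cell growth, measured 1.66 and 1.37 against 4.17, 6.12 and 6.47, and INHBA, an inhibin and activin subunit, 7.59 and 6.94 against 9.69, 10.65 and 10.81. PGR, the progesterone receptor, measured 1.01 and 1.07 against 2.54, 4.40 and 4.80. FSHR was also lowest on replicates 5 and 1, but with a smaller gap to the others. HSD17B1, an enzyme of oestradiol synthesis, and CCND1, a cyclin, did not separate in this way, with 2.47 and 0.11 against 3.53, 1.06 and 1.73 for HSD17B1 and 0.44 and 0.49 against -2.25, 3.02 and 1.47 for CCND1.

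Of the 9 markers of theca and stroma on the array, those named here were mixed on these arrays. They were picked after their values were seen, and the rest are not given array by array. COL3A1, a fibrillar collagen, measured 4.28 and 3.06 on replicates 1 and 5 and -2.93, 0.82 and -0.52 on the others, and COL1A2 measured 3.38 and 3.17 against -2.84, 1.62 and -0.38. ACTA2, a smooth muscle actin, measured 4.74 and 3.29 against 1.29, 1.83 and 1.05. The theca enzyme CYP17A1 measured 2.15 and 2.25 against 2.10, 1.34 and 1.65, within the range of 1.76 to 2.45 of the C1 arrays, and INSL3, a theca hormone, measured 6.19 and 6.89 against 7.40, 6.39 and 6.87. C1 replicate 5, the other array with detected LHCGR, had the highest CYP11A1 (7.67), CYP19A1 (4.79), CYP17A1 (2.45) and COL3A1 (0.29) of its stage. Its ACTA2 was also the highest, at 3.47 beside 3.44 on C1 replicate 1. It was not the highest for STAR (2.36), HSD3B1 (7.97), COL1A2 (-0.16) or INSL3 (7.53). For these the highest C1 arrays measured 2.63, 8.36, 0.12 and 7.92. CYP19A1 was by contrast lowest of C2 on replicates 1 and 5. The part of other cell types in the LHCGR signal was not tested.

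**Figure D4:**
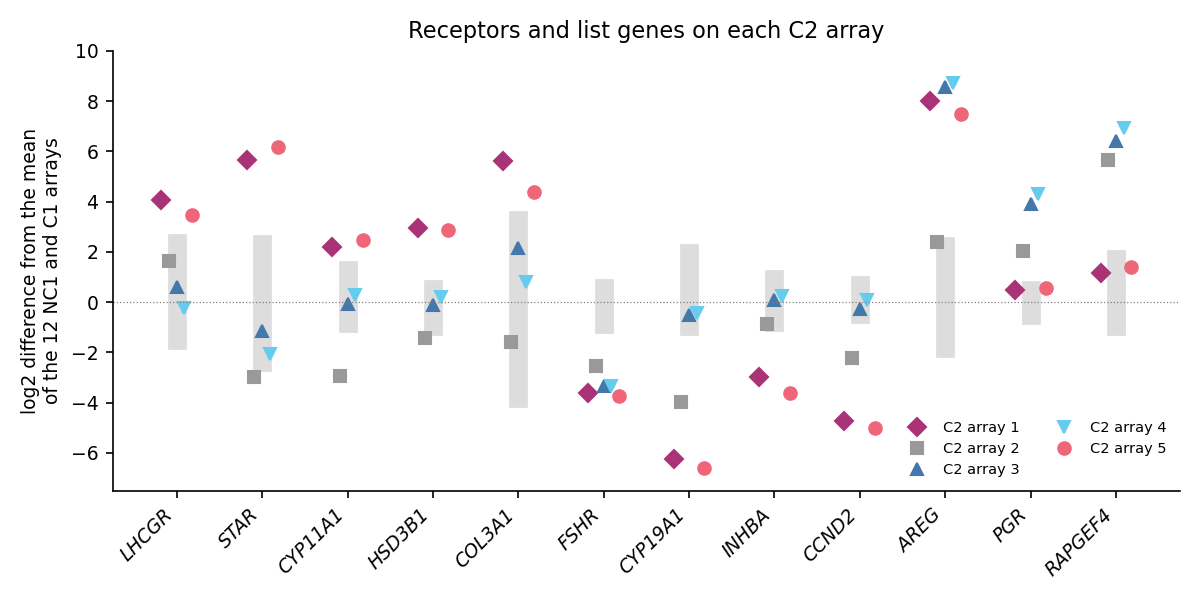
Level of each gene (x axis) on each C2 array as its log2 difference from the mean of the 12 NC1 and C1 arrays (y axis), whose range is the grey bar; LHCGR is probe A_73_101630. Replicates 1 and 5 sit apart for STAR, CYP11A1, HSD3B1, INHBA, CCND2 and RAPGEF4, while FSHR lies below the grey bar on all 5 arrays.

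Of the 10 ligands and subunits of these and related receptors, all were on the array and 1 was present at each stage. CGA, the shared alpha subunit, and LHB, the LH beta subunit, were detected on 0 of 17 arrays. PRL was detected on 1 NC1 and 1 C1 array and on 0 C2 arrays. The probe that passed the filter was for PRLH, a prolactin-releasing peptide, and it was not called, with C2 minus C1 at -0.72 (SE 0.37, adjusted p = 0.131 by limma), though against NC1 it was called with C2 replicates 1 and 5 left out.

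FSHB, which is known as a pituitary transcript, was the exception among the hormone subunits and was picked out after its values were seen. Its probe measured 0.13, -0.49, 0.59, 0.35, -1.68 and -0.26 on the NC1 arrays and 0.31, 0.76, -0.30, 0.05, -0.29 and 0.53 on the C1 arrays, all detected. The C2 arrays measured -5.70, -5.66, -5.29, -5.55 and -6.28, none of them detected. The signal was therefore at least 13.7-fold higher in C1 than in C2 (adjusted p = 7.12e-10 by limma over all probes) and at least 10.3-fold higher in NC1 (adjusted p = 1.95e-09 by limma). These bounds set the C2 arrays at the lowest detected signal of each array. The p-values compare the measured signals and do not test the bounds. As the probe was picked by its values, they are no independent support. Whether the probe binds only FSHB was not tested.

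Of 10 receptors of the same families, 5 were present at each stage and 1 was called lower in C2 against each earlier stage, or 20% of those tested beside 12.8% and 12.6% of all probes. This was GHR, the growth hormone receptor and a close relative of PRLR, with C2 minus C1 at -1.20 (SE 0.27, adjusted p = 0.00142 by limma). Its C2 arrays measured 3.54, 1.69, 2.23, 2.77 and 3.14 and its C1 arrays 3.56 to 4.13. With normexp background correction 0 of these receptors were called against NC1. TSHR, the thyrotropin receptor closest to FSHR and LHCGR, was detected on 1 of 17 arrays. LEPR, the leptin receptor, was detected on 3 of 5 C2 arrays and on no other, a gene picked out after its values were seen. Its C2 arrays measured -4.10, -4.20, -1.21, -1.37 and -3.20. LEPR was at least 2.59-fold higher in C2 than in C1 (adjusted p = 0.000156 by limma over all probes). Against NC1 it was at least 1.21-fold higher (adjusted p = 0.00202 by limma over all probes). These bounds set the C1 and NC1 arrays at their lowest detected signals, and carry no interval. The p-values compare the measured signals, not the bounds, and are no independent support for a gene picked by its values.

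Of 35 genes of G protein coupling, cyclic AMP and receptor desensitisation, 30 were matched to a probe and 23 were present at each stage, and 8 were called higher and 5 lower in C2 than in C1 (8 and 4 against NC1). This is 56.5% of those tested, beside 28.1% of all probes (15.3% higher), with a median difference of 0.20 for the list and 0.02 over all probes. ADCY1, an adenylyl cyclase that makes cyclic AMP, fell most, with C2 minus C1 at -5.64 (SE 0.64, adjusted p = 1.60e-06 by limma), from 3.61 to 4.74 on the C1 arrays to -3.11, 0.25, -1.48, -1.79 and -1.48 on the C2 arrays. ADCY7, another adenylyl cyclase, rose by 2.80 (SE 0.53, adjusted p = 0.000387 by limma), although its C2 replicate 2, at -3.12, lay within the C1 range of -4.18 to -2.40, and ADCY7 was not called against NC1.

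GNA12, a G protein alpha subunit, rose by 2.30 on the log2 scale (adjusted p = 7.69e-08 by limma), and its C2 arrays at 4.52 to 5.63 lay above its C1 arrays at 2.74 to 3.22. GRK5, a kinase that phosphorylates active receptors, rose by 2.11 (adjusted p = 2.71e-05 by limma), with C2 at 1.84 to 3.48 and C1 at 0.22 to 1.23. GNAS, the stimulatory alpha subunit that couples FSHR and LHCGR, measured a difference of 0.20 (adjusted p = 0.410 by limma) on its brighter probe and -1.34 on the other, so that its probes disagreed. RAPGEF4, a cyclic AMP sensor picked out after its values were seen, was detected on C2 replicates 2, 3, 4 and 5 and on no NC1 or C1 array. Its C2 arrays measured -4.40, 0.12, 0.85, 1.38 and -4.15, and replicates 1 and 5 lay within the NC1 range of -5.92 to -3.85. On the mean of all C2 arrays RAPGEF4 was at least 7.72-fold higher than in C1 (adjusted p = 0.000353 by limma over all probes). Against NC1 it was at least 3.60-fold higher (adjusted p = 0.00216 by limma over all probes). Here too the p-values compare the measured signals, not the bounds, and the gene was picked by its values. They are therefore no independent support.

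Of 27 genes of prolactin receptor signalling, 25 were present at each stage, and 5 were called higher and 2 lower in C2 than in C1, with the same counts against NC1. This share, 28%, was near that of all probes. TEC, a cytoplasmic tyrosine kinase, fell by 3.61 on the log2 scale (adjusted p = 7.42e-09 by limma), with C2 arrays at -1.31 to -0.01 and C1 arrays at 2.75 to 3.76. SOCS1, a feedback inhibitor of JAK kinases, fell by 2.14 (adjusted p = 1.91e-05 by limma). VAV1 and VAV2, guanine nucleotide exchange factors, rose by 1.66 (adjusted p = 0.000303 by limma) and by 1.58 (adjusted p = 0.000823 by limma). The core members were not called: C2 minus C1 was 0.32 for JAK2, 0.56 for STAT5A and 0.91 for STAT5B (adjusted p = 0.274, 0.103 and 0.0654 by limma). With each close pair of C2 arrays averaged, 4 genes of the list were called in place of 7 against C1 and 3 in place of 7 against NC1. VAV2 was then no longer called against C1 (adjusted p = 0.0114 by limma), nor with C2 replicates 1 and 5 left out (adjusted p = 0.0107 by limma).

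Of 14 targets of FSH, all were present at each stage, and 4 were called lower and 0 higher in C2 than in C1 by limma, and 5 and 0 against NC1, where 6 of 14 had an unadjusted p under 0.05 in each comparison. The 4 called lower than in C1 were 28.6% of those tested, beside 12.8% of all probes called lower and 28.1% called in either direction. Against NC1 the 5 were 35.7%, beside 12.6% of all probes called lower. With normexp background correction 3 genes of the list were called against NC1. The median difference from C1 was -0.59 beside 0.02 over all probes. HSD17B1, which reduces oestrone to oestradiol, fell by 6.46 on the log2 scale (SE 0.41, adjusted p = 1.34e-09 by limma), from 7.96 to 8.59 on the C1 arrays to 2.47, 3.53, 1.06, 1.73 and 0.11 on the C2 arrays. NR5A1, a nuclear receptor that controls steroidogenic genes, fell by 1.67 (adjusted p = 9.64e-05 by limma). FST, which binds activin, fell by 1.49 (adjusted p = 5.70e-05 by limma), with C2 at 8.01 to 9.23 and C1 at 9.80 to 10.30.

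CYP19A1 fell by 3.45 (SE 0.95, adjusted p = 0.00704 by limma), but C2 replicates 3 and 4, at 2.34 and 2.43, lay within its C1 range of 1.89 to 4.79. With C2 replicates 1 and 5 left out its difference was -1.54 (adjusted p = 0.0844 by limma). Its call was also lost without C1 replicate 1, 3, 4, 5 or 6 or C2 replicate 1, 2 or 5, with adjusted p from 0.0101 to 0.0222 by limma. The 10 targets of FSH that were not called included INHA, an inhibin subunit, at -0.29 (adjusted p = 0.449 by limma) and CCND2 at -2.38 (adjusted p = 0.0117 by limma).

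Of 14 targets of LH, 13 were matched to a probe and 12 were present at each stage, and 6 were called higher and 1 lower in C2 than in C1 (5 and 1 against NC1). This was 58.3% of those tested, beside 28.1% of all probes (15.3% higher), with a median difference of 2.10 against C1 and 0.92 against NC1. TNFAIP6, which cross-links the hyaluronan matrix of the expanding cumulus, rose by 6.63 on the log2 scale (SE 0.73, adjusted p = 1.11e-06 by limma), with C2 arrays at 8.53 to 9.96 and C1 arrays at -0.16 to 5.06. PTX3, another matrix protein of the cumulus, rose by 4.98 (adjusted p = 6.51e-05 by limma). PTGS2, which makes prostaglandins, rose by 4.75 (adjusted p = 2.97e-07 by limma), with C2 at 4.68 to 6.70 and C1 at -0.20 to 1.77.

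BTC, an EGF-family ligand, was the target of LH that fell, by 4.57 (adjusted p = 5.57e-07 by limma), with C2 arrays at -3.84 to -0.18 and C1 arrays at 1.54 to 3.31. STAR was not called (C2 minus C1 of 2.17, adjusted p = 0.212 by limma), and its C2 values separated as given above. AREG, another EGF-family ligand picked out after its values were seen, was detected on 1 NC1, 1 C1 and 5 C2 arrays, and measured 2.94, -2.69, 3.50, 3.65 and 2.41 in C2 and -6.88 to -4.59 in C1.

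Of 8 targets of prolactin, 6 were present at each stage and 1 was called (16.7%, beside 28.1% of all probes), CCND1, a cyclin of the G1 phase, which rose by 2.44 in C2 against C1 (SE 0.64, adjusted p = 0.00521 by limma). Its C2 replicate 2, at -2.25, lay within its C1 range of -2.50 to -1.26, and the other C2 arrays measured 0.44, 3.02, 1.47 and 0.49. The call was lost without C1 replicate 3, 4 or 6 or C2 replicate 3 or 4 (adjusted p from 0.0103 to 0.0159 by limma), with C2 replicates 1 and 5 left out (adjusted p = 0.0119 by limma), with slide as a block (adjusted p = 0.0161 by limma) and with the close pairs averaged (adjusted p = 0.0368 by limma). Against NC1, 0 targets of prolactin were called by limma (1 with C2 replicates 1 and 5 left out), and 1 had an unadjusted p under 0.05. Between C1 and NC1, 0 genes of the 7 lists were called by limma, and an unadjusted p under 0.05 was found for 3 genes of G protein coupling, 1 of prolactin receptor signalling, 1 target of FSH and 1 target of prolactin.

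**Figure D5:**
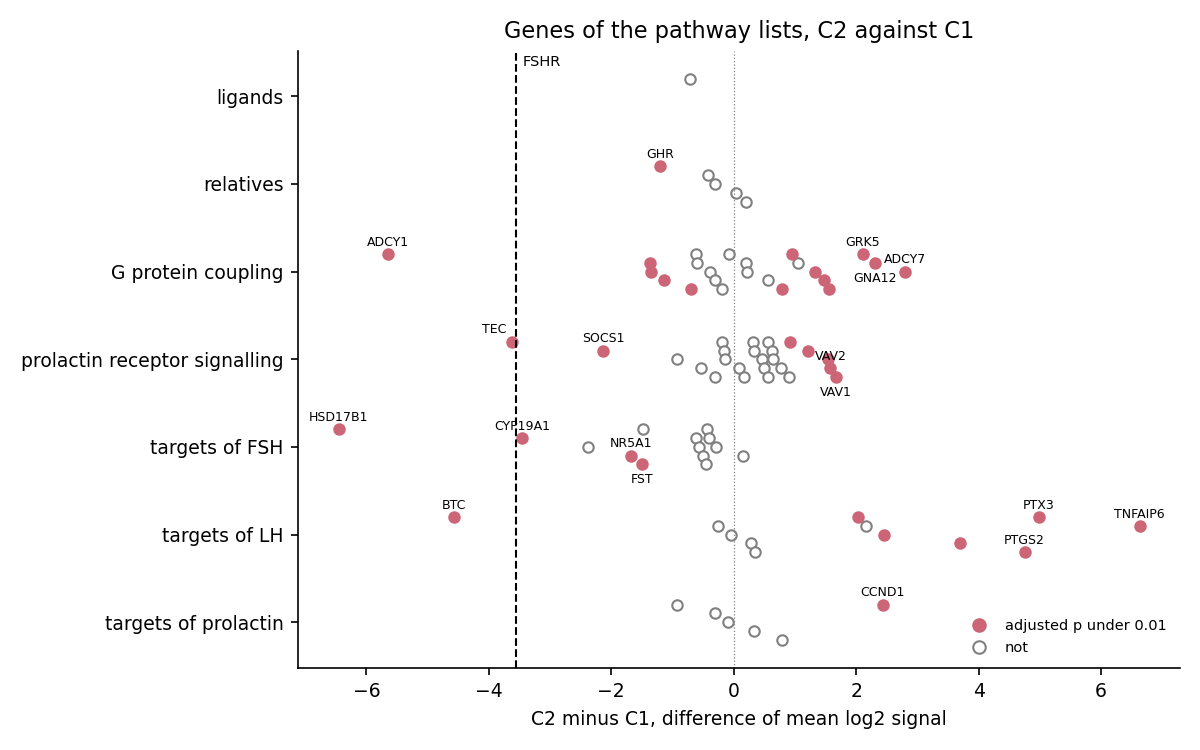
Difference of mean log2 signal, C2 minus C1 (x axis), for each gene of the 7 lists that was present at each stage (y axis), filled where the adjusted p was under 0.01, with the FSHR difference as a dashed line. In the list of targets of FSH the 4 filled points lie left of zero, and in that of targets of LH 6 of 7 lie right of it.

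The probes whose pattern over the 17 arrays was most like that of FSHR were JAK3, a kinase of cytokine receptors, P4HTM, a membrane prolyl hydroxylase, ERAS, a Ras-family protein, MOB3B, a kinase activator of the MOB family, and ROR2, a receptor tyrosine kinase. Likeness was the root mean square difference between profiles centred on their own mean, among 10158 probes of named genes. It was 0.34 for JAK3, 0.40 for P4HTM, 0.41 for ERAS and MOB3B and 0.42 for ROR2, and 1.66 at the median of these probes. Their C2 minus C1 ran from -3.83 to -2.99, which the measure of likeness itself uses. LHCGR lies next to FSHR in the order of protein-coding genes of the RefSeq annotation of assembly ARS-UCD2.0, and none of 6 other nearby genes with a probe passed the threshold, with C2 minus C1 from -0.52 for ASB3 to 2.28 for KCNK12.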

How the data were processed

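Cumulus cell RNA of 6 NC1, 6 C1 and 5 C2 samples, from different animals at each stage, was read on 1-colour arrays. The authors deposited linear intensity values per spot from Agilent Feature Extraction 10.5.1.1 (submitters' processing notes), background-subtracted and not scaled between arrays. A second deposited file holds normalized log2 values, nearly all of which differed from those computed here by a constant per array (within 2.03e-06). It holds FSHR but neither LHCGR nor PRLR.

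From the spots, log2 signals were averaged per probe without non-uniform and outlier spots, and the array median was subtracted. The 13865 of 21475 probes detected on 80% or more of the arrays at every stage were fitted in limma 3.58.1 (R 4.3.3), 3 stages in 1 fit, with Benjamini-Hochberg adjustment and a threshold of 0.01. The fit was tested on simulated data. LHCGR, PRLR and other dim probes were fitted over all probes. A gene of a list was represented by its brightest present probe, and up to 4 called genes a list with the largest C2 against C1 difference were named, and other list genes in the text were picked after their values were seen. Names came from RefSeq for 15111 probes. Receptors and lists were chosen with earlier results of these data known. The arrays' number limits the precision. Alternatives covered scaling, background, filters, spots, blocks, array weights and left-out arrays. Another gene near the receptors is not reported here.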

Additional observations from a re-analysis of the deposited data

Results flagged for a closer look

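Among 66 sets of values, 1 per named probe and stage, 2 held an array far from the others, and chance alone marks about 1 in 20 such sets. ADCY7 measured -3.12 on C2 replicate 2, while the nearest other C2 array measured 0.03. FST measured 10.87 on NC1 replicate 5, while the nearest other NC1 array measured 10.14. No FSHR, LHCGR or PRLR value stood apart in this way.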

How the results depend on the processing

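The FSHR differences kept their direction and their side of the threshold under all 32 alternatives run for each. C2 minus C1 ranged from -3.69 to -3.31, and from -3.74 to -3.44 as single arrays were left out. C2 minus NC1 ranged from -3.22 to -2.69, and from -3.26 to -2.95 without single arrays. C1 minus NC1 ranged from 0.45 to 0.78, and from 0.35 to 0.60 without single arrays, with adjusted p of 0.0313 at the lowest (1 weight per array). The F over the stages was 81.4 to 187, and 106 to 170 without single arrays.

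LHCGR and PRLR have no value in the deposited table or among probes present at 2 stages, so these alternatives gave none. For LHCGR, C2 minus C1 was 1.47 to 2.54 without single arrays on A_73_101630 and 1.32 to 1.92 on A_73_103337, C2 minus NC1 1.27 to 2.34 and 0.61 to 1.19, C1 minus NC1 -0.68 to 0.084 (without C1 replicate 2) and -0.999 to -0.53, and F 2.54 to 7.83 and 4.46 to 10.1. Quantile normalization turned C1 minus NC1 to 0.41 and 0.23. Normexp background correction turned C2 minus NC1 to -0.0054 on A_73_103337 and shrank C2 minus C1 to 0.45 and 0.30. For PRLR, C2 minus C1 was 0.83 to 1.48, C2 minus NC1 0.06 to 0.72, C1 minus NC1 -0.95 to -0.59 and F 2.90 to 5.48 without single arrays. Quantile normalization turned its C1 minus NC1 to 0.024 and normexp its C2 minus NC1 to -0.050. The cause was not tested.

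The labels' replicate numbers name different animals, and same-numbered arrays did not deviate together (correlations from -0.32 to 0.25 over 16 pairs). With the replicate number as a block, FSHR C2 minus C1 was -3.54, PRLR C2 minus C1 was 1.34 (adjusted p = 0.00998 by limma, past the threshold), and 3202 probes were called in place of 3892 for C2 against C1 and 0 in place of 8 for C1 against NC1. With no filter, 25 were called for C1 against NC1, and 32 with C2 replicates 1 and 5 left out, while slide as a block left 2.

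For the 18 named list genes, 553 of 576 alternatives kept the call and none changed sign. The 23 lost calls were those of VAV2, CYP19A1 and CCND1, the last 2 also under the replicate block (adjusted p = 0.0139 and 0.0197 by limma). Calls of CYP19A1 and CCND1 were also lost where only the 2 stages compared were fitted (adjusted p = 0.0278 and 0.0148 by limma). Leaving out replicates 1 and 5 and averaging close pairs were chosen after seeing the data. Signals near background, as for LHCGR and PRLR, carry little order.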
